A study of Mus musculus with 8 samples.

Results

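The genes described here encode the pocket proteins Rb1 and Rbl1 and the transcription factors E2f1 to E2f8, 10 of the 23420 gene symbols in the deposited count tables. They were taken by symbol, and all 10 had enough reads to be tested. The libraries were RNA-seq of mouse embryonic fibroblasts on a C57BL6/N background, 4 from Neat1 null (Neat1-/-) cells and 4 from wild-type cells. Cells of both genotypes expressed the adenoviral oncoprotein E1A together with HRasV12, an activated Ras, so no library shows the pathway without E1A. The labels do not say how the oncogenes were introduced, how old the embryos were, or whether each library of a genotype had its own embryo or culture. The p-values therefore speak only of how far these 8 libraries spread, which may be technical. In bulk samples such as these, fewer cells of a type and less RNA per cell cannot be told apart.

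Pocket proteins bind E2F factors and silence the genes those factors sit on, until cyclin-dependent kinases phosphorylate the pocket proteins in late G1 and release them. E1A binds pocket proteins itself and frees E2F without that step, which drives cells into DNA replication. E2f1, E2f2 and E2f3 are known as activators of S phase genes. E2f4 and E2f5 act mostly as repressors in complexes with pocket proteins, E2f6 represses without them as part of a Polycomb complex, and the atypical E2f7 and E2f8 repress without the DP partner that the other family members need. Several family genes are themselves known E2F targets.

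The E2F consensus was searched as TTTCCCGC, TTTCGCGC, TTTGCCGC or TTTGGCGC on both strands, in windows running from 250 bases before to 50 bases after each RefSeq transcript start (GRCm38.p6). The table held windows for 7 of the 10 genes, and 4 of these had a match, Rbl1, E2f2, E2f3 and E2f7. The 7 genes had 9 windows between them, and the second windows of E2f2 and E2f3 held no match. Over all 32851 windows 2.27% held one, and of the 9865 tested genes with a window 4.7% had one in any of their windows. The stretches around the matches are shown 5′ to 3′ on the strand of the gene, with the match in capitals. They are shown because they hold the letters that E2F proteins are known to prefer.
Rbl1, chr2:157204535-157204592, minus strand: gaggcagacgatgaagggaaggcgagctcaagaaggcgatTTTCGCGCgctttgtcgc
E2f2, chr4:136172302-136172323, plus strand: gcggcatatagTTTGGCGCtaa
E2f3, chr13:29986064-29986114, minus strand: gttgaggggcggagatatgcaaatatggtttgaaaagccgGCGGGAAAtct
E2f7, chr10:110745201-110745288, plus strand: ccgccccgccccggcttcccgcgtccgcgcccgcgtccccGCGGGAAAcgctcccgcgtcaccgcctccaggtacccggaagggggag
The match began 18 bases before the start in Rbl1 and 11 bases before it in E2f3, where it lies on the other strand as in E2f7. In E2f2 it began at base 40 of the RefSeq transcript, whose start lies 120 bases before the annotated gene. In E2f7 it began 198 bases before the start. Windows of E2f6 and E2f8 held no match, and neither did that of E2f1. The E2f1 window is set on a transcript start 466 bases inside the annotated gene, so the bases before that gene were not searched. Rb1, E2f4 and E2f5 had no window in the table. A match is a description of the letters and not evidence of binding in these cells.

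Counts assigned to genes ranged from 19651035 to 38950207 in Neat1 null libraries and from 31651625 to 37069334 in wild-type libraries. Neat1 had 6.12 to 11.3 CPM (counts per 1000000 of the library size after TMM scaling) in Neat1 null libraries, against 138 to 1320 CPM in wild-type libraries, so the labels hold for the targeted gene (log2 fold change -6.44, SE 0.66, adjusted p = 0.000761, edgeR). The libraries also differed in ways beyond genotype. Ribosomal protein genes took 25.4%, 9.21%, 15.0% and 8.42% of counts in Neat1 null libraries 1 to 4, against 5.99% to 7.05% in wild-type libraries. Each gene's log2 CPM was set against its mean over the 8 libraries, and the slope of this deviation on gene length was taken per library. The slope was -0.32 and -0.48 per doubling of length in Neat1 null libraries 1 and 3, against 0.14 to 0.25 in wild-type libraries. It was 0.00545 and -0.0550 in Neat1 null libraries 2 and 4. Slopes taken this way balance over the libraries, so those of the genotypes are not independent of each other. Xist and Y-linked genes marked all wild-type libraries and Neat1 null library 3 as female and the other 3 Neat1 null libraries as male. Among fibroblast markers, Vim was abundant in both genotypes at 1891 to 3263 CPM in Neat1 null and 1233 to 2184 CPM in wild-type libraries. Col1a1 had only 1.29 to 5.75 CPM in Neat1 null and 2.98 to 12.4 CPM in wild-type libraries, and the epithelial marker Epcam had 34.0 to 64.6 CPM in Neat1 null and 26.9 to 57.1 CPM in wild-type libraries. Of 8 fibroblast markers only Pdgfra passed, at -3.59 on the log2 scale, and their summed level was 2587 to 4031 CPM in Neat1 null and 1826 to 3399 CPM in wild-type libraries. The 6 epithelial markers gave no call and summed to 253 to 3231 CPM in Neat1 null and 212 to 689 CPM in wild-type libraries. Neuronal markers summed to 7.64 to 26.8 CPM in Neat1 null and 26.7 to 64.3 CPM in wild-type libraries. Of the 3 tested 2 fell, where 7.72% of all genes did, and the remaining estimate was 1.68 on the log2 scale, not called. Blood cell markers summed to 4.13 to 18.7 CPM in Neat1 null and 9.31 to 102 CPM in wild-type libraries, and the only one tested fell. Endothelial and muscle markers summed to at most 15.5 CPM in any library, with no call, and the leukocyte gene Ptprc and the muscle factor gene Myod1 were at 0 in every library. The part of these differences in the results on the family was not tested.

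None of the 10 genes passed the threshold between Neat1 null and wild-type libraries (edgeR, adjusted p under 0.05), where 17.7% of all 13316 genes tested did, 1328 higher and 1028 lower (1036 higher and 1428 lower with upper-quartile factors). That count over all genes rested on single libraries, with 0.0950% called without Neat1 null library 3, 0.135% and 0.0820% without wild-type libraries 3 and 4 in turn, and 0.0497% without Neat1 null libraries 1 and 3 together. In the last of these fits Neat1 itself did not pass (log2 fold change -6.34, adjusted p = 0.0899, edgeR), so a missed threshold there says little about a single gene. With all 8 libraries, 3 family genes had an unadjusted p under 0.05, Rb1, E2f5 and E2f2, against 36.0% of all genes. DESeq2 called 2, Rb1 and E2f5, both lower, where it called 24.7% of all genes. These were also the 2 genes whose genotypes did not overlap, against 22.6% of all genes, and 11.0% in the lower direction. The median log2 fold change was -0.18 over the 10 genes and -0.06 over all genes tested, with 3 estimates above 0 and 7 below. The widths of the intervals given below leave room for changes of more than 2-fold in several of the genes, so a missed threshold does not show equal levels.

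**Figure D1:**
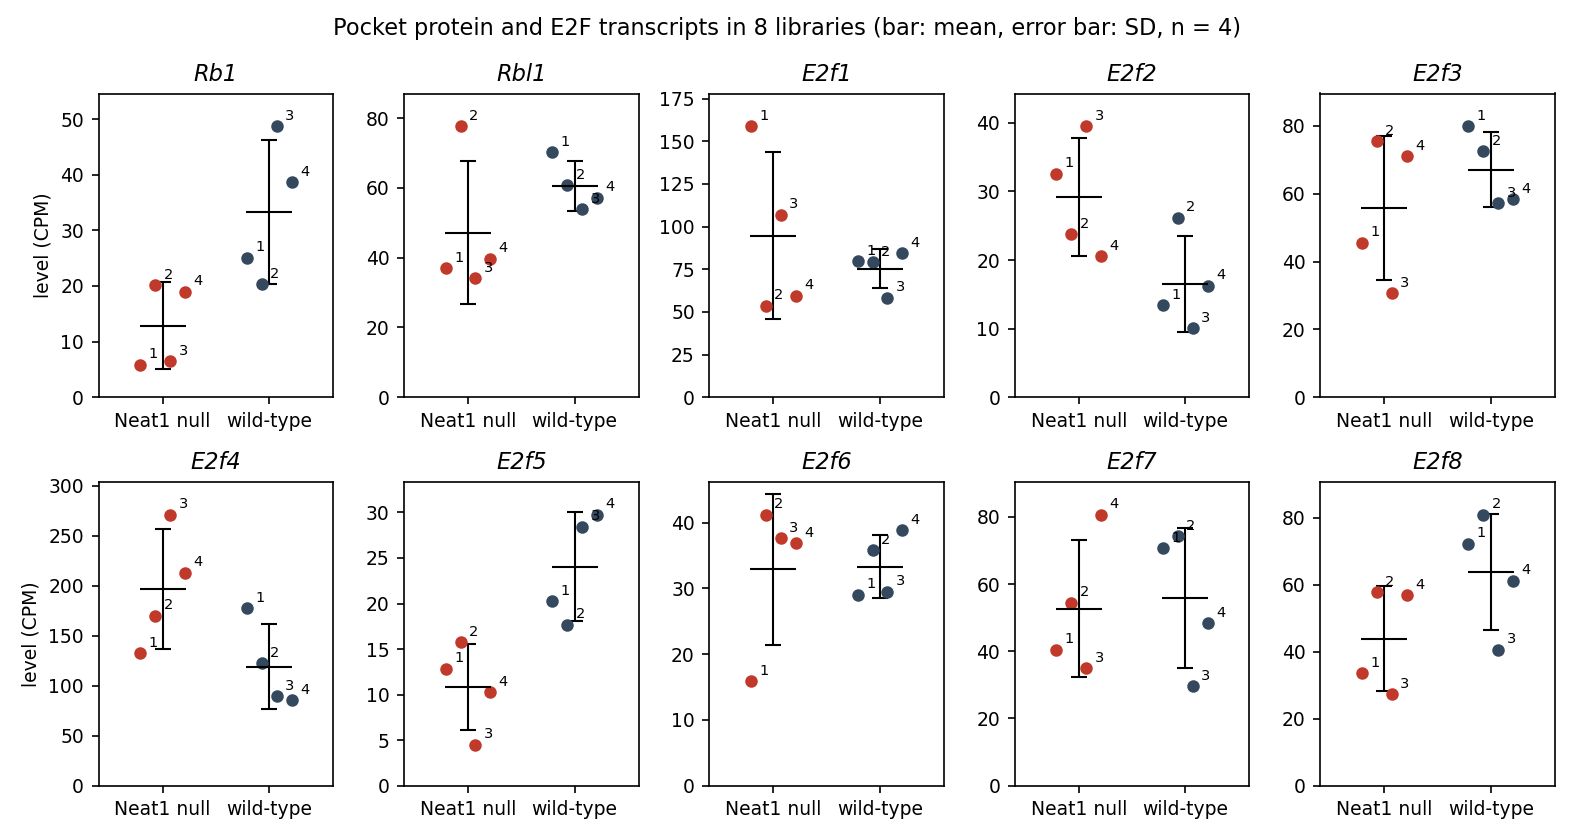
Level of each gene in CPM (linear axis from 0) in the 4 Neat1 null (red, left) and 4 wild-type libraries (dark blue, right), with the replicate number beside each point, the mean as a bar and the SD as an error bar. The genotypes are separate only for Rb1 and E2f5, and for Rb1 by a gap between 20.2 CPM in Neat1 null library 2 and 20.4 CPM in wild-type library 2.

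Rb1, the retinoblastoma protein and the main partner of the activator E2Fs, was the gene nearest to the threshold. It had 5.84, 20.2, 6.42 and 19.0 CPM in Neat1 null libraries 1 to 4, against 25.1, 20.4, 48.8 and 38.7 CPM in wild-type libraries 1 to 4. The genotypes did not overlap, but Neat1 null libraries 2 and 4 lay close to wild-type library 2. The means were 12.9 ± 7.80 CPM in Neat1 null and 33.2 ± 12.9 CPM in wild-type libraries (SD, n = 4 each), a log2 fold change of -1.36 (SE 0.46, 95% interval -2.35 to -0.38, adjusted p = 0.0537, edgeR). In Neat1 null library 1 that level rests on 65 reads. The gene lies on chromosome 14 (GRCm38, 73183673 to 73325822, minus strand), and its exons share 408 bases with Lpar6 and 488 bases with Rcbtb2 on the other strand, where reads cannot be assigned without the strand setting.

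The Rb1 estimate moved with the libraries used. With 1 library left out, it ranged from -1.65 to -1.12 and passed in 4 of 8 fits, with adjusted p-values from 0.0334 to 0.175. Those were the fits without Neat1 null library 2 (21.7% of all genes called), Neat1 null library 4 (15.9%), wild-type library 1 (20.9%) and wild-type library 2 (12.9%). Rb1 did not pass without Neat1 null library 1 (12.1%), Neat1 null library 3 (0.0950%), wild-type library 3 (0.135%) or wild-type library 4 (0.0820%). Without Neat1 null libraries 1 and 3 the estimate was -0.78 (adjusted p = 0.246, 0.0497% of all genes called). It was -0.87 (adjusted p = 0.118, 12.4%) once trends with gene length and GC content had been removed library by library, called the length and GC correction below. It passed with upper-quartile factors (-1.55, adjusted p = 0.0419, 18.5% of all genes called), with no low-count filter (-1.33, adjusted p = 0.0461, 14.1%) and with replicate numbers as a block (-1.51, adjusted p = 0.0304, 16.9%).

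Rbl1, also called p107, the pocket protein that pairs mainly with E2f4, had 37.1, 77.8, 34.1 and 39.7 CPM in Neat1 null libraries 1 to 4, against 70.4, 60.9, 53.9 and 57.2 CPM in wild-type libraries. Here 3 Neat1 null libraries lay below all wild-type libraries and the remaining library, number 2, above all of them. The log2 fold change was -0.36 (SE 0.35, 95% interval -1.10 to 0.38, adjusted p = 0.470, edgeR), and 0.13 after the length and GC correction (adjusted p = 0.752). Rbl1 is the pocket protein gene with the E2F match just before its start, shown above.

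E2f1, the activator that can also trigger apoptosis, had its highest and its lowest level within the Neat1 null group. It had 159, 53.7, 107 and 59.5 CPM in Neat1 null libraries 1 to 4, against 79.7, 79.0, 58.4 and 84.3 CPM in wild-type libraries. The means were 94.7 ± 49.0 CPM in Neat1 null and 75.4 ± 11.6 CPM in wild-type libraries (SD, n = 4 each), so the Neat1 null libraries were spread more widely than the means were apart. The log2 fold change was 0.33 (SE 0.38, 95% interval -0.49 to 1.14, adjusted p = 0.556, edgeR). Its sign turned to -0.04 without Neat1 null library 1 and to -0.42 without Neat1 null libraries 1 and 3 (adjusted p = 0.937 and 0.307).

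E2f2, the least abundant activator in CPM, had 32.6, 23.8, 39.5 and 20.6 CPM in Neat1 null libraries 1 to 4, against 13.5, 26.2, 10.0 and 16.3 CPM in wild-type libraries. All Neat1 null libraries lay above the wild-type mean of 16.5 CPM, and wild-type library 2 lay above 2 of them. The log2 fold change was 0.82 (SE 0.38, 95% interval 0.01 to 1.63, adjusted p = 0.134, edgeR), 0.75 after the length and GC correction and 0.42 without Neat1 null libraries 1 and 3. It did not pass in any of the 8 fits with 1 library left out (adjusted p = 0.0740 to 0.345).

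E2f3, whose locus yields an activating and a shorter form that these gene counts cannot separate, had 45.5, 75.4, 30.7 and 71.0 CPM in Neat1 null libraries 1 to 4, against 80.0, 72.6, 57.3 and 58.4 CPM in wild-type libraries. Neat1 null libraries 1 and 3 lay below every wild-type library, while 2 and 4 lay within the wild-type range. Its log2 fold change was -0.27 (SE 0.35, 95% interval -1.02 to 0.49, adjusted p = 0.607, edgeR) and 0.12 without Neat1 null libraries 1 and 3. The estimates of the 3 activators thus did not share a sign, and none passed.

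Of the E2Fs that bind pocket proteins to repress, E2f4 had the higher estimate and E2f5 the lower. E2f4 had 132, 170, 271 and 213 CPM in Neat1 null libraries 1 to 4, against 178, 123, 89.3 and 85.7 CPM in wild-type libraries. Wild-type library 1 lay above 2 Neat1 null libraries, and the other 3 wild-type libraries lay below all of them. The log2 fold change was 0.73 (SE 0.37, 95% interval -0.07 to 1.52, adjusted p = 0.173, edgeR), and 0.28 after the length and GC correction (adjusted p = 0.585).

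E2f5 had 12.8, 15.7, 4.52 and 10.3 CPM in Neat1 null libraries 1 to 4, against 20.2, 17.7, 28.5 and 29.8 CPM in wild-type libraries, with no overlap. The means were 10.8 ± 4.77 CPM in Neat1 null and 24.0 ± 5.98 CPM in wild-type libraries (SD, n = 4 each), a log2 fold change of -1.15 (SE 0.41, 95% interval -2.02 to -0.28, adjusted p = 0.0624, edgeR). E2f5 has the shortest exon sequence of the family, 1782 bases. The length and GC correction put E2f5 at -1.45 (SE 0.37, adjusted p = 0.0377), and it was the only family gene to pass in that fit, which called 12.4% of all genes. It was -0.90 without Neat1 null libraries 1 and 3 (adjusted p = 0.181, 0.0497% of all genes called). With 1 library left out it ranged from -1.38 to -0.88 and passed only without Neat1 null library 2 (adjusted p = 0.0404 to 0.182). It also passed with upper-quartile factors (-1.35, adjusted p = 0.0417), with the length and GC correction and the block together (-1.51, adjusted p = 0.0360, 15.0% of all genes called) and with library sex as a covariate (-2.41, adjusted p = 0.0194, 25.4%). In the fit with sex the genotype difference rests on Neat1 null library 3, the only female null library and the one with the lowest E2f5 level. Both Rb1 and E2f5 thus had lower estimates in every fit run, and both lay on one side or the other of the threshold depending on the fit. A constant sign was not particular to them. E2f8 was also below 0 in every fit, and E2f2 and E2f4 were above 0 in every fit, though none of these passed in any.

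E2f6, which lacks the domains for activation and for pocket protein binding, had 15.9, 41.2, 37.6 and 36.9 CPM in Neat1 null libraries 1 to 4, against 29.1, 35.8, 29.5 and 38.9 CPM in wild-type libraries. Neat1 null library 1 was the lowest of all 8 libraries and stood apart from the other 3 Neat1 null libraries, which lay within or just above the wild-type range. The log2 fold change was -0.02 (SE 0.35, 95% interval -0.76 to 0.73, adjusted p = 0.976, edgeR), the estimate nearest to 0 in the family, and its sign turned in several other fits, as with RLE factors (0.03).

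The atypical E2f7, known to repress E2f1 together with E2f8, had 40.5, 54.5, 35.0 and 80.7 CPM in Neat1 null libraries 1 to 4, against 70.8, 74.3, 29.7 and 48.4 CPM in wild-type libraries. Both genotypes spanned nearly the same range, and the log2 fold change was -0.08 (SE 0.38, 95% interval -0.90 to 0.73, adjusted p = 0.891, edgeR). E2f8 had 33.7, 57.8, 27.4 and 56.9 CPM in Neat1 null libraries, against 72.3, 81.0, 40.6 and 61.3 CPM in wild-type libraries. All Neat1 null libraries lay below the wild-type mean of 63.8 CPM, but only wild-type library 3 kept the groups from separating. Its log2 fold change was -0.54 (SE 0.36, 95% interval -1.31 to 0.23, adjusted p = 0.295, edgeR), and -0.16 without Neat1 null libraries 1 and 3. E2f8 exons share 610 bases with Gm2788 on the other strand.

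**Figure D2:**
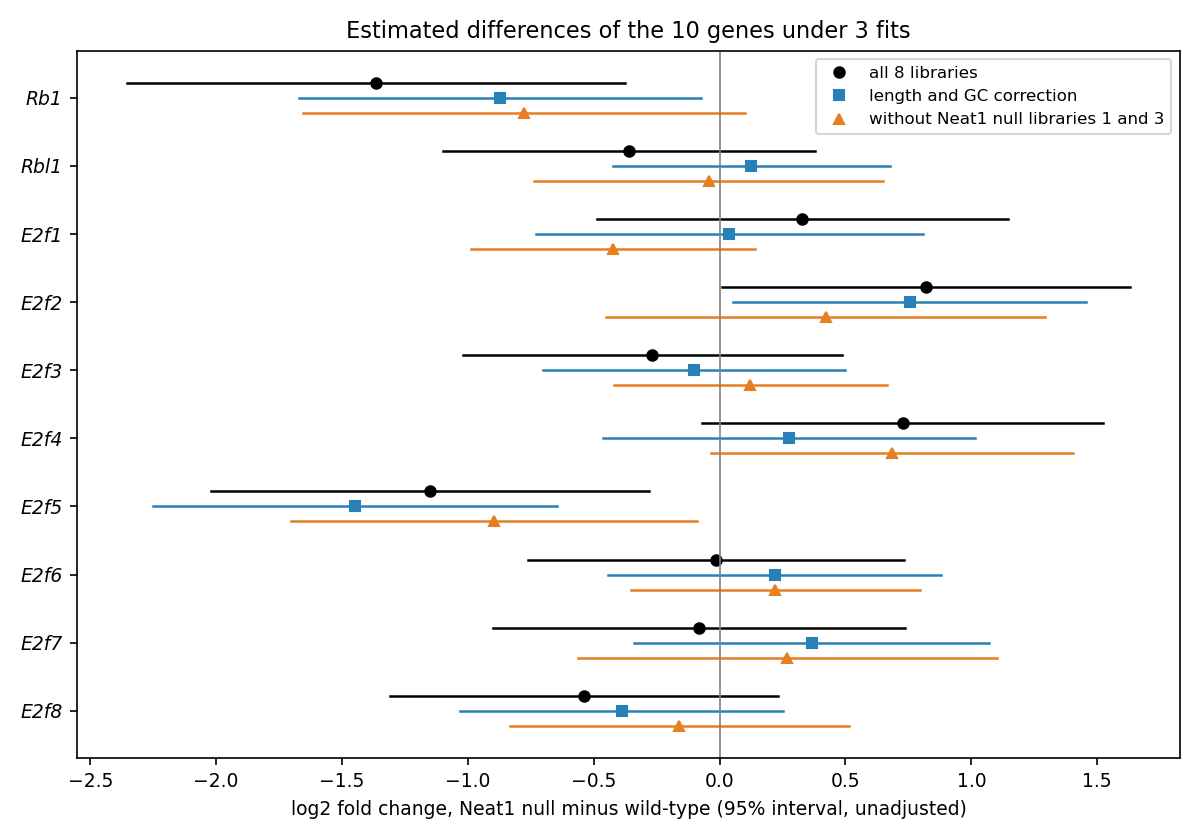
Log2 fold change, Neat1 null minus wild-type, of the 10 genes with its 95% interval (not adjusted for the number of genes) from all 8 libraries (black circles), after the length and GC correction (blue squares) and without Neat1 null libraries 1 and 3 (orange triangles). Rb1 moves towards 0 in both other fits, with -0.87 and -0.78 in place of -1.36. Rb1, E2f5 and E2f8 have estimates below 0 in all 3.

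Several genes were uneven within a genotype. Relative to each gene's own mean over the 8 libraries, Rb1 was at -1.66 and -1.53 (log2) in Neat1 null libraries 1 and 3 and at 0.12 and 0.03 in libraries 2 and 4, while it was at 1.40 and 1.06 in wild-type libraries 3 and 4. E2f3 and E2f8 had their lowest level of all libraries in Neat1 null library 3, as did E2f5. E2f1 was highest in Neat1 null library 1, followed by library 3. Neat1 null libraries 1 and 3 were also those with the most negative length slopes and the largest ribosomal protein shares given above. The part of these in the family's values was not tested beyond the length and GC correction.

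**Figure D3:**
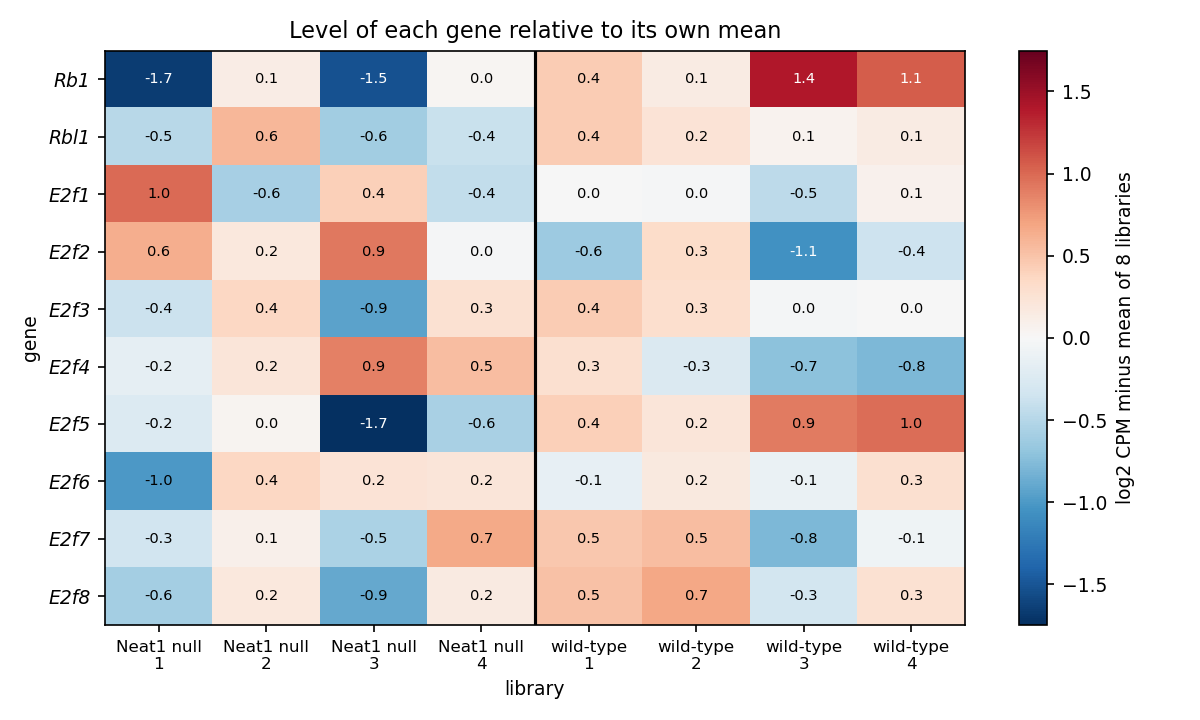
Log2 CPM of each gene (rows) in each library (columns, Neat1 null left of the line, wild-type right), minus the gene's mean over the 8 libraries; red is above and blue below that mean. The deepest blue cells are Rb1 in Neat1 null libraries 1 and 3 and E2f5 in Neat1 null library 3, and the deepest red is Rb1 in wild-type library 3.

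Levels can be compared between genes only per length, here as CPM per kilobase of merged exon sequence. On that scale E2f4 was the most abundant family transcript and E2f1 came next, in both genotypes and in every library. E2f4 averaged 80.2 ± 24.3 CPM per kilobase in Neat1 null and 48.5 ± 17.4 in wild-type libraries (SD, n = 4 each), while E2f1 ranged from 17.0 to 50.4 in Neat1 null and from 18.5 to 26.7 in wild-type libraries. In Neat1 null libraries E2f3 (10.3), E2f8 (8.07), Rbl1 (7.87), E2f5 (6.08), E2f2 (5.97), E2f7 (5.85) and E2f6 (5.81) followed, and none of these neighbours differed beyond their SDs. Rb1 came last in Neat1 null libraries at 2.14 ± 1.30 CPM per kilobase and was below E2f6 in all 4. In wild-type libraries the order after E2f1 was E2f5 (13.5), E2f3 (12.4), E2f8 (11.7) and Rbl1 (10.1), then E2f7 (6.19), E2f6 (5.88), Rb1 (5.53) and E2f2 (3.38). There only the step from Rbl1 to E2f7 held in every library without overlap. E2f5 thus had rank 6 in Neat1 null and rank 3 in wild-type libraries, and E2f2 rank 7 and rank 10. The median annotated transcript length puts Rb1 at rank 3 and E2f7 at rank 2 over all libraries, since many short transcripts are annotated for them, so the order depends on the length used.

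Summed by role, these levels per merged exon length gave the make-up of the E2F transcript pool. Activators made up 46.7%, 25.9%, 27.0% and 23.4% of the summed E2F level per length in Neat1 null libraries 1 to 4, against 28.0%, 32.8%, 31.3% and 35.2% in wild-type libraries. Library 1 was above and the other 3 Neat1 null libraries below the whole wild-type range. E2f4 and E2f5 together made up 43.7% to 64.2% in Neat1 null and 44.5% to 54.8% in wild-type libraries. E2f7 and E2f8 made up 9.32 ± 3.61% in Neat1 null and 14.1 ± 2.67% in wild-type libraries, and E2f6 made up 3.82 ± 1.36% and 4.81 ± 1.09% (SD, n = 4 each). The ratio of E2f4 to E2f1 per length was 1.07, 4.08, 3.26 and 4.61 in Neat1 null libraries, against 2.87, 2.0, 1.97 and 1.31 in wild-type libraries, again with Neat1 null library 1 apart from the other 3. Rb1 and Rbl1 together amounted to 5.11%, 11.8%, 3.83% and 6.32% of the summed E2F level in Neat1 null libraries, against 10.4%, 10.2%, 17.2% and 13.8% in wild-type libraries. Neat1 null library 2 thus lay within the wild-type range and the other 3 below it. These sums were not tested, and their size depends on the length used. They cover only the listed genes, so the sum of Rb1 and Rbl1 is not that of every pocket protein gene. Like the levels per length above, they were made without the length and GC correction, though the length slopes differed between the genotypes. After that correction the log2 fold changes of E2f7, Rbl1 and E2f4 were 0.37, 0.13 and 0.28, in place of -0.08, -0.36 and 0.73. Those of Rb1 and E2f5 stayed below 0 (-0.87 and -1.45). The part of the length slopes in the shares was not tested. With median transcript lengths, chosen for the sums after seeing the data, E2f7 and E2f8 made up 24.3 ± 7.76% in Neat1 null and 33.0 ± 5.32% in wild-type libraries, and activators 18.3 ± 7.81% and 18.3 ± 2.45% (SD, n = 4 each). Rb1 and Rbl1 together then amounted to 15.3 ± 8.04% of the summed E2F level in Neat1 null and 42.7 ± 22.6% in wild-type libraries.

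**Figure D4:**
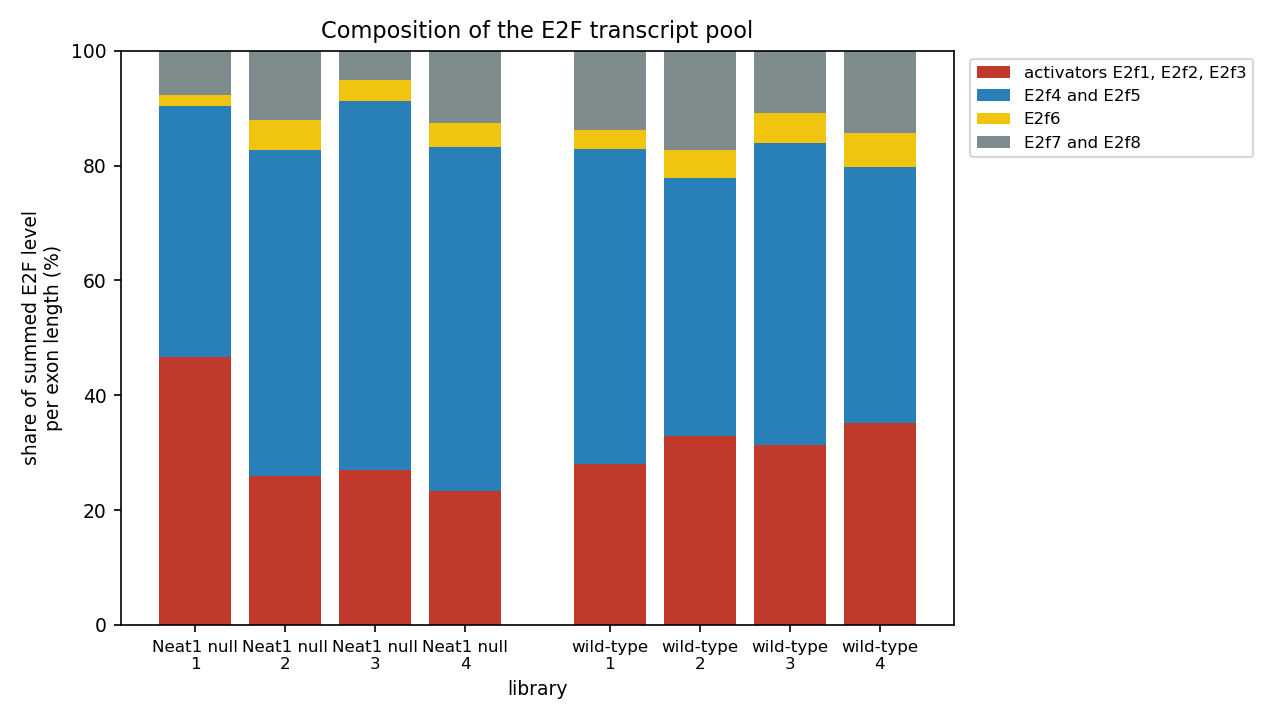
Share (%) of the summed level per exon length of E2f1 to E2f8 taken by the activators, by E2f4 and E2f5, by E2f6 and by E2f7 and E2f8, in each Neat1 null (left) and wild-type library (right), using merged exon lengths. With these lengths E2f4 and E2f5 make up the largest share in every library except Neat1 null library 1, where the activators have 46.7%.

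The DP proteins, with which E2f1 to E2f6 must pair to bind DNA, did not pass either. Tfdp1 had 89.8, 248, 199 and 250 CPM in Neat1 null libraries, against 271, 146, 117 and 125 CPM in wild-type libraries, and edgeR gave 0.26 on the log2 scale (SE 0.41, adjusted p = 0.673). Tfdp2 had 55.6, 88.8, 44.0 and 68.5 CPM in Neat1 null libraries, against 86.5, 87.2, 98.9 and 111 CPM in wild-type libraries, and edgeR gave -0.58 (SE 0.33, adjusted p = 0.216), which became 0.33 after the length and GC correction.

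Among 24 well known E2F target genes of DNA replication and the cell cycle, 2 rose in Neat1 null libraries, where 9.97% of all genes did, and 0 fell. The median log2 fold change of the list was 0.55, against -0.06 over all genes tested, and 18 of the 24 estimates were above 0. Tyms, thymidylate synthase, had 163, 157, 199 and 143 CPM in Neat1 null libraries, against 103, 61.4, 23.7 and 33.6 CPM in wild-type libraries, with no overlap (log2 fold change 1.58, SE 0.43, adjusted p = 0.0266, edgeR). Mcm5, a subunit of the replicative helicase, had 256, 372, 1253 and 522 CPM in Neat1 null libraries, against 291, 195, 83.8 and 98.4 CPM in wild-type libraries (1.85, SE 0.55, adjusted p = 0.0332). Wild-type library 1 lay above Neat1 null library 1 for Mcm5. Leaving out Neat1 null library 3, wild-type library 3 or wild-type library 4 ended the call of Tyms (adjusted p = 0.0733, 0.0927 and 0.101) and of Mcm5 (adjusted p = 0.116, 0.110 and 0.112). Those fits called only 0.0950%, 0.135% and 0.0820% of all genes, so most calls of the series ended there. The call of Mcm5 ended without wild-type library 2 as well (adjusted p = 0.0537, 12.9% of all genes called). It also ended with the length and GC correction together with the block (1.71, adjusted p = 0.0690, 15.0%). Neither gene passed without Neat1 null libraries 1 and 3 (1.44 and 1.42, adjusted p = 0.157 and 0.151), where 0.0497% of all genes did and Neat1 itself did not. The list median was then 0.58. After the length and GC correction 2 list genes were again called higher and the median was 0.77, against 0.10 over all genes. The promoter windows of 11 of the 20 targets in the table held an E2F match, Mcm5 among them. Of all tested genes with a window 4.7% did. The list was made of known E2F targets, so its share of matches says nothing about the differences between genotypes.

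No gene of the MuvB core and the factors that join it (7 tested) or of the G1 cyclins and their kinases (8 tested) passed in the edgeR fit to all 8 libraries, and the medians of the lists were 0.49 and 0.51. Rbbp4, a histone-binding MuvB subunit named here after its values were seen, was at 0.95 (adjusted p = 0.0934), and its genotypes did not overlap. Rbbp4 passed after the length and GC correction (1.82, adjusted p = 0.0377) and with DESeq2 (1.02, adjusted p = 0.0376). It also passed with library sex as a covariate (1.53, adjusted p = 0.0307), a fit that rests on Neat1 null library 3. The nearest were Lin37, a MuvB subunit that the repressing DREAM complex needs, at 1.18 (SE 0.40, adjusted p = 0.0505, edgeR), and Mybl2, the B-Myb factor that takes MuvB up in S phase, at 1.49 (SE 0.51, adjusted p = 0.0546). Lin37 had 26.1, 16.4, 47.1 and 17.1 CPM in Neat1 null libraries, against 11.0, 14.5, 10.3 and 11.3 CPM in wild-type libraries, without overlap, and its log2 fold change was 0.32 after the length and GC correction (adjusted p = 0.371). Over 19 other fits its adjusted p ran from 0.0153 to 0.458, with 5 under the threshold (RLE factors, DESeq2, sex, and without Neat1 null library 2 or 4), and that of Mybl2 ran from 0.0165 to 0.223, with 7 under it. Cdk4, the kinase that opens the phosphorylation of Rb1, had 579, 613, 1467 and 744 CPM in Neat1 null libraries, against 499, 419, 248 and 289 CPM in wild-type libraries, without overlap (1.23, SE 0.43, adjusted p = 0.0618). Ccne1, cyclin E1 and an E2F target, had an estimate of 1.14 (SE 0.42, adjusted p = 0.0720). Of the 19 other fits, Cdk4 passed in 3 and Ccne1 in 4, DESeq2 among them for both (adjusted p = 0.0160 and 0.0392).

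Of the 7 kinase inhibitors tested none passed, and the median was 0.05. Cdkn2a, whose locus yields p16Ink4a and p19Arf and is known to be held down by Rb and E2F complexes, had 1009, 200, 354 and 263 CPM in Neat1 null libraries, against 150, 188, 181 and 171 CPM in wild-type libraries (log2 fold change 1.40, SE 0.48, adjusted p = 0.0541, edgeR). The genotypes did not overlap, but library 1 set the size, and the estimate was 0.42 after the length and GC correction and 0.41 without Neat1 null libraries 1 and 3. Cdkn2a passed in 4 of 19 other fits, with no low-count filter (adjusted p = 0.0433), with DESeq2 (adjusted p = 0.0167) and without Neat1 null library 2 or 4 (adjusted p = 0.0270 and 0.0416). Cdkn2b, the neighbouring p15Ink4b gene, was at -0.43 (SE 0.40, adjusted p = 0.462).

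Among 10 chromatin factors that pocket proteins bind, Smarca2, the Brm ATPase of the SWI/SNF complex, fell, where 7.72% of all genes fell, and 0 rose, with a list median of -0.48 that became 0.03 after the length and GC correction. It had 26.3, 46.7, 16.4 and 30.6 CPM in Neat1 null libraries, against 68.7, 114, 108 and 153 CPM in wild-type libraries, for which edgeR gave -1.88 on the log2 scale (SE 0.39, adjusted p = 0.0180), and -1.26 after the length and GC correction (adjusted p = 0.0355). Its call ended without Neat1 null library 3, wild-type library 3 or wild-type library 4 (adjusted p = 0.0646, 0.0607 and 0.0684), and without Neat1 null libraries 1 and 3 together (-1.53, adjusted p = 0.144). Those fits called only 0.0950%, 0.135%, 0.0820% and 0.0497% of all genes. None of 10 other partners of E1A passed, with a median of -0.27 that became 0.16 after that correction. The acetyltransferase gene Ep300 was nearest, with 119, 120, 35.7 and 107 CPM in Neat1 null libraries, against 244, 177, 168 and 181 CPM in wild-type libraries (-1.01, SE 0.40, adjusted p = 0.0854), and -0.42 after the length and GC correction. Ep300 passed with upper-quartile factors (-1.18, adjusted p = 0.0471) and with library sex as a covariate (-2.43, adjusted p = 0.0144). The latter fit rests on Neat1 null library 3, where Ep300 was lowest. The corepressor gene Ctbp1 was at 0.75 (SE 0.35, adjusted p = 0.137).

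Genes downstream of single family members, and the genes of the complex that E2f6 belongs to, gave no call in the edgeR fit to all 8 libraries. Of 5 tested apoptosis genes known as E2f1 targets none passed, and the median was -0.27. Apaf1, the apoptosome scaffold, was at -0.92 (SE 0.40, adjusted p = 0.116, edgeR). It passed in 1 of 19 other fits, that with library sex as a covariate, which rests on Neat1 null library 3. Trp73 had 0 to 2 reads per Neat1 null and 0 to 4 reads per wild-type library and was not tested. Of 9 subunits of the Polycomb complex of E2f6 none passed, with a median of -0.39 that became -0.01 after the length and GC correction. Max was nearest at 0.94 (SE 0.36, adjusted p = 0.0760), followed by L3mbtl2 at 0.97 (SE 0.39, adjusted p = 0.0914), and they passed in 3 and 1 of 19 other fits. Of 11 germ cell genes known to be held silent by E2f6 or its complex in mouse cells, 9 had too few reads to be tested, and Stag3 and Smc1b were at -0.66 (SE 0.64, adjusted p = 0.475) and -1.22 (SE 0.85, adjusted p = 0.314). Smc1b passed with library sex as a covariate (adjusted p = 0.0426), again a fit that rests on Neat1 null library 3, and Stag3 passed in no other fit. Untested Ddx4, named after its counts were seen, had 0, 4, 2 and 7 reads in Neat1 null libraries, against 6, 32, 79 and 100 reads in wild-type libraries.

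**Figure D5:**
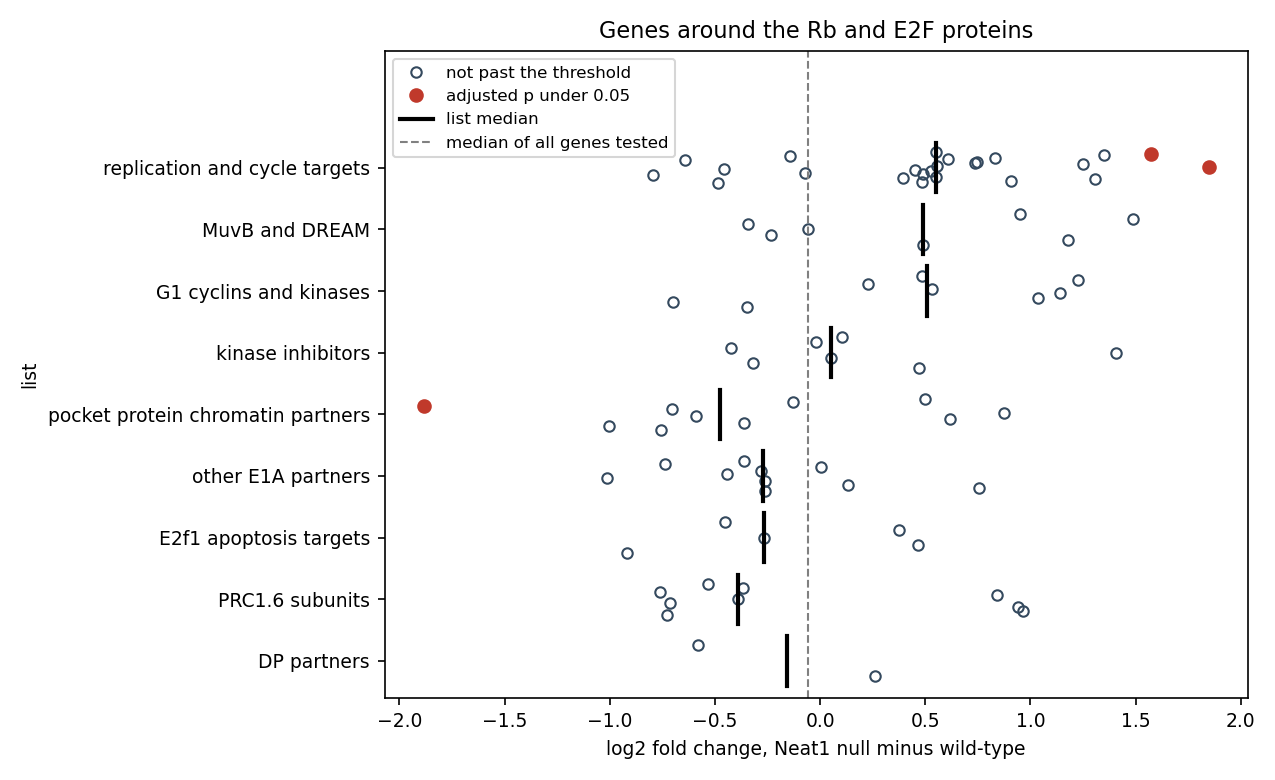
Log2 fold change, Neat1 null minus wild-type, of each tested gene (points) in 9 lists of genes around the Rb and E2F proteins, with list medians (black bars), the median of all genes tested (dashed line) and genes past the threshold in red. Called genes are Tyms and Mcm5 among the replication and cycle targets and Smarca2 among the chromatin partners of pocket proteins.

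Over all genes, 464 tested ones had an E2F match in a promoter window and 9401 had a window without one. Of those with a match 12.9% were called higher and 5.17% lower in Neat1 null libraries, against 10.1% and 7.80% of those without. The medians of the log2 fold change were 0.14 and -0.05, with median exon lengths of 4624.5 and 4502.5 bases. After the length and GC correction, 9.91% were higher and 3.23% lower with a match, against 7.82% and 4.81% without. Smaller groups within the matched genes did not all lean this way. Of 70 genes that also held the cell cycle element TTTGAA on either strand, 5.71% were higher and 8.57% lower (median -0.10). After the correction 2.86% of them were higher and 5.71% lower (median 0.20). Of 23 genes with 2 or more E2F matches, 8.70% were higher and 0 lower (median -0.06), and 17.4% and 0 after the correction (median 0.54). The corrected medians were 0.35 for all genes with a match and 0.11 for those without. These shares describe sets of genes that differ in more than the match and were not tested.

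The genes whose log2 CPM ran most like that of E2f1 over the 8 libraries were Ehbp1l1, Rax, Xylt2, Gpt and Pld6 (Pearson r 0.93 to 0.95, a description over 8 libraries of 2 genotypes). Those most like Rb1 were Mir22hg, Pcdh9, Slc30a7, Nfe2l2 and Trp53inp1 (r 0.99). The 5 genes like Rb1 had log2 fold changes from -1.85 to -0.82, as follows from their likeness to it.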

How the data were processed

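Each library came as 1 table of unnormalized counts by gene symbol, used as the authors deposited it. Per the submitters' processing notes, CASAVA 1.8, STAR, DESeq2 and the mm10 build were used. The sources used here name neither the counter nor its strand setting or gene models. The last 2 entries of each file name no gene and were left out (reads outside genes 5.48% to 11.0% of counts in Neat1 null and 9.83% to 15.7% in wild-type libraries, ambiguous reads 1.34% to 1.76% and 1.09% to 1.22%).

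Genes were filtered with filterByExpr (minimum count 10), scaled with TMM factors and tested with edgeR 4.0.16 in R 4.3.3 (robust quasi-likelihood F test, 2-sided, genotype as the only term), with p-values adjusted by Benjamini-Hochberg over the 13316 genes tested. Differences on the log2 scale run Neat1 null minus wild-type, and the SE is the size of the change divided by the square root of F. The steps were tested on simulated data without length or GC trends, sex differences or deviating libraries. That test does not bear on how such features affect the calls. Gene positions and lengths came from GENCODE M21 (GRCm38, also called mm10), which held 21777 of the symbols by name and 1297 by a synonym, leaving 346 unmatched. GC content was that of the longest transcript, and length and GC trends were fitted per library as splines with 5 degrees of freedom. Promoters came from RefSeq.

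The family and the lists were chosen with earlier results of these data known. The named genes are the 10 family genes, Neat1, both DP genes, and from each list up to 4 called genes with the smallest p or, with none called, the 2 nearest, plus the 5 genes most like E2f1 and Rb1. 1 gene that this rule names is not reported here. Cell type markers, Trp73 as the untested list gene, and Ddx4 and Rbbp4 (both chosen after their values were seen) are named outside the rule. Sets were described by counts and medians and not tested. Any pair of libraries within a genotype differed beyond counting noise (chi-square over its degrees of freedom 59.3 or more), so each counted as 1 sample. Same-numbered libraries did not deviate together (correlations -0.25 to 0.32), so no pairing was used. Alternatives were RLE and upper-quartile factors, other filters, a fit that is not robust, each library left out, DESeq2 1.42.0, a replicate block, the length and GC correction, sex as a covariate, leaving out Neat1 null libraries 1 and 3, and a threshold of 0.01.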

Additional observations from a re-analysis of the deposited data

Results flagged for a closer look

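In 2 of 20 groups of 4 values, 1 library stood far from the other 3, where chance flags about 1 in 20. Rbl1 had 77.8 CPM in Neat1 null library 2, against 34.1 to 39.7 CPM in the other Neat1 null libraries. E2f6 had 15.9 CPM in Neat1 null library 1, against 36.9 to 41.2 CPM in the other Neat1 null libraries.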

How the results depend on the processing

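The number of all genes called, 2356, was 3589 with DESeq2, 7 without Neat1 null libraries 1 and 3, 7 at an adjusted p under 0.01, and 11 to 2965 with 1 library left out. Of the 10 family genes, 0 were called, against 2 with upper-quartile factors, 2 with DESeq2, 1 each with no low-count filter, the replicate block, the length and GC correction with and without that block, and sex as a covariate, and 0 to 2 with 1 library left out. Of the listed pathway genes 3 were called, against 6 with RLE factors, 6 with no low-count filter, 15 with DESeq2, 5 with the length and GC correction, 6 with that correction and the block, 26 with sex as a covariate, 0 without Neat1 null libraries 1 and 3, 0 at an adjusted p under 0.01, and 0 to 10 with 1 library left out. The share of all genes called moved as well. It was 17.7% in the main fit, 18.1% with RLE factors, 18.5% with upper-quartile factors and 14.1% with no low-count filter. DESeq2 called 24.7%, the replicate block 16.9% and sex as a covariate 25.4%. The length and GC correction called 12.4%, and 15.0% with the block. The share was 0.0497% without Neat1 null libraries 1 and 3 and 0.0526% at an adjusted p under 0.01. It was 0.0820% to 21.7% with 1 library left out. Only Neat1 null library 3 among the null libraries is female, so the fit with sex rests on it for the genotype difference. Same-numbered libraries did not deviate together, so the replicate block is no paired analysis; with it 2245 genes were called, and 1 of 4 libraries correlated best with its own number.

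Signs turned for several estimates, none of them called. With the length and GC correction, without and with the block, Rbl1 was at 0.13 and 0.12, E2f6 at 0.22 and 0.15, E2f7 at 0.37 and 0.43, Tfdp2 at 0.33 and 0.32, and E2f1 with the block at -0.076. Without Neat1 null libraries 1 and 3, E2f1 was at -0.42, E2f3 at 0.12, E2f6 at 0.22, E2f7 at 0.27 and Stag3 at 0.0087. E2f6 was at 0.031 with RLE factors, 0.0086 with no low-count filter, 0.039 with DESeq2 and 0.17 with sex as a covariate. With 1 library left out, E2f1 ranged from -0.044 to 0.53, E2f6 from -0.13 to 0.21 and E2f7 from -0.36 to 0.090. The causes were not tested. Rb1, E2f5 and E2f8 lay below 0 in each of these fits, and E2f2 and E2f4 above 0. The median transcript length moved 7 of 10 levels per length. Rb1 rests on 65 reads in Neat1 null library 1.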
